A study of Mus musculus with 9 samples.

Results

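The Hox genes of the mouse were followed in the colonic mucosa of Apc mutant mice with and without an epimutation of p16. Members were the genes of the deposited table whose symbol is Hox, a cluster letter from a to d and a number, which gave 39 genes in 40 rows among 54146 genes in all. RNA-seq had been performed on 9 C57BL/6J mice at 15 wk of age, with 1 library per mouse. The 5 ApcMin/+ mice (2 females and 3 males) carried a heterozygous germline mutation of Apc, and the 4 ApcMin/+; p16cis/cis mice (3 females and 1 male) carried the same mutation together with p16cis on both alleles. p16cis is a knocked-in cis-element at the p16 promoter that draws DNA methylation to it. Both groups thus carried ApcMin, and no mouse was wild type for Apc. The labels give the tissue as colonic mucosa, and the methods state that the RNA came from colonic crypts.

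Hox genes encode homeodomain transcription factors that lie in clusters on different chromosomes, and the order of the genes along a cluster follows the order of the body regions in which they act, from head to tail. Members that hold the same position in different clusters are called paralogs and share a number. In the gut the clusters are switched on from the anterior to the posterior end, so that the stomach, small intestine and colon each carry a characteristic set, and the paralogs with the highest numbers mark the hindgut. In adult epithelium this set is kept as a record of position along the gut, held in place by Polycomb and Trithorax proteins.

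The libraries held 15745098 to 17885918 reads on genes in ApcMin/+ mice, against 13523500 to 14900228 in the ApcMin/+; p16cis/cis group. Mitochondrially encoded genes took 12.0% ± 2.87 (SD, n = 5) of these reads in ApcMin/+ mice, against 24.2% ± 4.41 (SD, n = 4) in the ApcMin/+; p16cis/cis group, with no overlap of the ranges. Cdkn2a, the gene of p16, was listed at 0 in all 9 libraries, which gives no check of the labels. The tissue label was checked with marker genes. The 8 epithelial markers were high in every mouse (summed normalised count 197714 to 289881), with 0 of 8 past the test between genotypes. Squamous markers, which would come from the anal canal, summed to 7.98 to 45.1, with Trp63 and Sprr3 at 0 in all mice. Fibroblast markers were lower in ApcMin/+; p16cis/cis mice for 6 of 6 genes tested (1 with an adjusted p under 0.05, against 8.75% of all genes tested), smooth muscle markers for 5 of 5 (0) and leukocyte markers for 7 of 8 (2). Their summed normalised counts ranged from 544 to 1110, 41.9 to 357 and 155 to 1491 in ApcMin/+ mice, against 412 to 601, 37.6 to 113 and 248 to 392.2. Of 3 tested genes of enteric neurons and glia and 2 of endothelium none passed. The endothelial genes tested went in opposite directions. Pecam1 had a log2 fold change of -0.92 ± 0.332 and Vwf one of 0.43 ± 0.308 (limma, adjusted p = 0.0766 and 0.360). Cdh5 and Kdr were too low to be tested. They stood at 1.27 to 23.8 and 0 to 26.1 in ApcMin/+ mice and at 0 in all 4 ApcMin/+; p16cis/cis mice. Of 4 fat markers 1 was tested, Cidec, which was lower (123 to 422 in ApcMin/+ mice, against 41.7 to 90.2). The other fat markers were near 0 in both genotypes. Adipoq and Plin1 stood at 0 to 2.27 and 0 to 1.95 in ApcMin/+ mice, against 0 to 7.98 and 0, and Lep was at 0 in all mice. In a bulk sample, fewer cells of a type and less RNA per cell cannot be told apart. The part of these shifts and of the mitochondrial share in the Hox differences was not tested.

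Of the 40 Hox rows, 33 had at least 1 read in some mouse and 26 genes passed the filter on low values, which asked for a normalised count (a read count divided by the size factor of its library) of at least 10 in at least 4 mice. The filter did not use the genotype, but a gene high in 1 genotype alone could pass it. The A cluster on chromosome 6 (52155590 to 52260880, GRCm38, minus strand) was read from end to end, with 11 of 11 genes past the filter and 39600 reads. The B cluster on chromosome 11 (96194316 to 96368256, plus strand) held 81359 reads, with 9 of 10 genes past the filter. The D cluster on chromosome 2 (74668310 to 74765142, plus strand) held 14414 reads, and 6 of its 9 genes passed, all of them from paralog group 8 upwards. The C cluster on chromosome 15 (102921103 to 103036852, plus strand) held 15 reads in 9 libraries together, and 0 of its 9 genes passed.

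Members at or near 0 were the C cluster as a block and the anterior ends of clusters B and D. Hoxb1, Hoxc8, Hoxc9, Hoxc11, Hoxc12 and Hoxc13 were at 0 in all 9 mice, which allows a share of up to 2.13e-06% of the 140908881 reads (3 reads, counting error only). Hoxc4, Hoxc5, Hoxc6, Hoxc10, Hoxd1, Hoxd3 and Hoxd4 had a few reads, at most 8 in any mouse, and were not tested. Hoxc6 had the most of the C cluster, with 3 reads in ApcMin/+ replicate 1, 3 in ApcMin/+; p16cis/cis replicate 2, 1 each in ApcMin/+ replicates 4 and 5, and 0 in the other mice. Hoxd4 is listed under 2 identifiers. One had 14 reads in 4 mice and has no entry in the GENCODE M21 annotation, the other was at 0, and the exons of Hoxd4 and Hoxd3 overlap on the same strand, so the split of reads between them is uncertain.

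Levels of different genes were compared as normalised count per kb of exon, averaged over 9 mice. Hoxb13, a posterior factor known from the hindgut, tail and prostate, was the highest at 3070.2 ± 779 (SD, n = 9) and made up 40.0% ± 4.80 of the summed Hox level per kb. It exceeded the next gene, Hoxb9, in 9 of 9 mice with no overlap of the ranges. Hoxb9, a factor of the thoracic skeleton, reached 903 ± 125, Hoxd13, a factor of digits and of the anorectal region, 633 ± 279, Hoxa13, the A cluster's hindgut and limb factor, 446 ± 64.5, and Hoxb6 403 ± 86.2. These neighbours overlapped in range, and each exceeded the next in 6 or 7 of 9 mice. Hoxa7 (381 ± 82.3) and Hoxa10 (338 ± 65.0) followed, then Hoxb8, Hoxa5, Hoxa9, Hoxb7 and Hoxb5 between 222 and 101. The ranges of neighbours overlapped at every further step down the order. With the longest transcript in place of all exons as the length, the first 3 genes kept their ranks and the order below them changed, with Hoxa7 4th at 540.1, ahead of Hoxa13 (460.0), Hoxa10 (431) and Hoxb6. The level of Hoxa9 became 298 and that of Hoxa3 190 in place of 172 and 81.7.

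**Figure D1:**
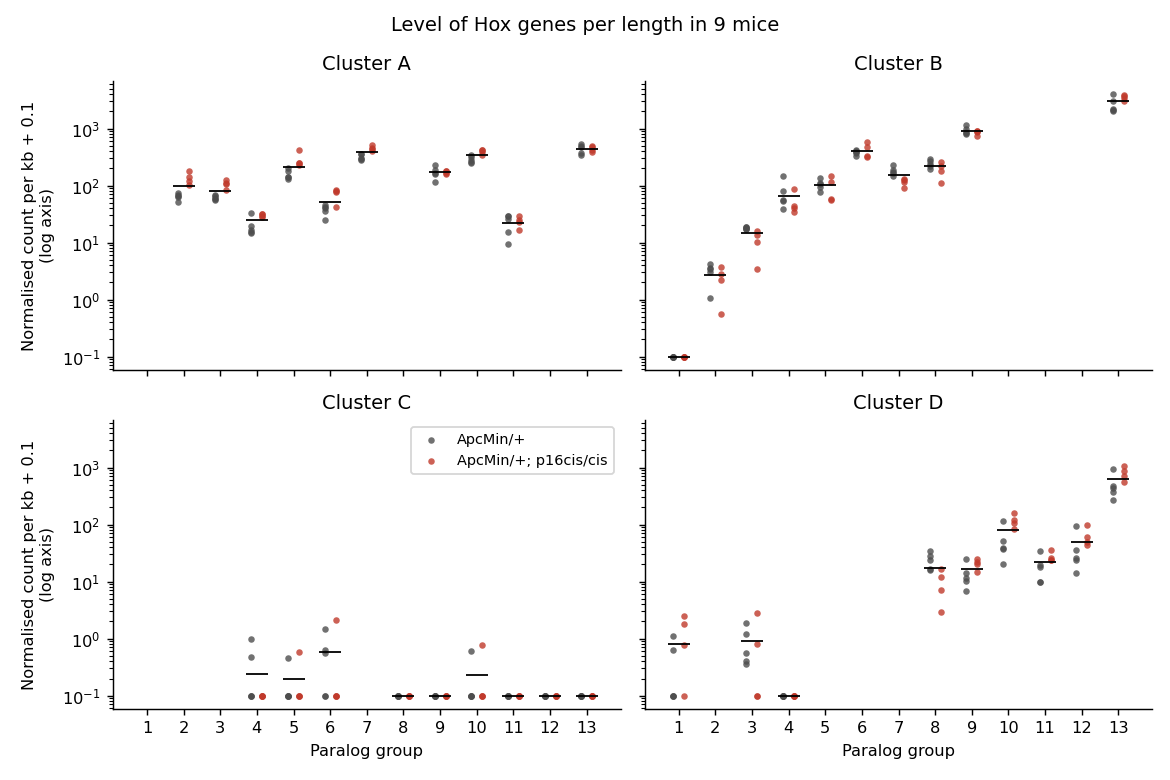
Normalised count per kb of exon (plus 0.1, log axis) of Hox genes against paralog group, with 1 panel per cluster. Each point is 1 mouse (grey, ApcMin/+, n = 5, and red, ApcMin/+; p16cis/cis, n = 4) and the line is the mean of 9 mice. Cluster B spans the range from Hoxb1, at 0, to Hoxb13 at 3070.2, and cluster C stayed near 0 throughout. Not every member is drawn, and the Hoxd4 identifier with reads has no exon length.

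The 4 paralogs of group 13 together took 54.0% ± 5.14 (SD, n = 9) of the summed level per kb, groups 9 to 13 took 75.4% ± 3.56, groups 4 to 8 21.9% ± 3.51 and groups 1 to 3 2.65% ± 0.589. By cluster, B took 65.2% ± 4.16, A 24.3% ± 2.72, D 10.5% ± 3.33 and C 0.0110% ± 0.0103. Levels did not rise at every step towards the posterior end. In cluster A Hoxa11 stood at 22.4 ± 7.20 per kb between Hoxa10 and Hoxa13, in cluster B Hoxb7 and Hoxb8 stood below Hoxb6, and in cluster D Hoxd11 (22.3 ± 9.18) stood between Hoxd10 (81.5 ± 46.8) and Hoxd13. The share of group 13 was 52.1% ± 5.86 in ApcMin/+ mice, against 56.4% ± 3.38 in the ApcMin/+; p16cis/cis group, with overlapping ranges. Group 8 made up 2.93% to 5.35% in ApcMin/+ mice, against 1.32% to 2.94% in the ApcMin/+; p16cis/cis group, so that only the lowest mouse of the former met the highest of the latter.

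The comparison of genotypes asked whether the Hox set of the mucosa differed when p16cis/cis was added to ApcMin. Hoxa2 and Hoxd10 rose and Hoxd8 fell past an adjusted p under 0.05 and a fold over 2 (limma over 14410 genes, Benjamini-Hochberg), which was 3 of 26 Hox genes tested. Among all genes tested 3.48% met this rule, 1.83% higher and 1.64% lower. At an adjusted p under 0.05 alone, 8 of 26 Hox genes passed, 6 higher (Hoxa2, Hoxa3, Hoxa5, Hoxa7, Hoxa10 and Hoxd10) and 2 lower (Hoxb7 and Hoxd8), against 16.9% of all genes, 8.14% higher and 8.75% lower. The genotypes did not overlap for 6 of 26 Hox genes, 4 higher (Hoxa2, Hoxa3, Hoxa5 and Hoxa7) and 2 lower (Hoxb3 and Hoxb7), against 16.2% of all genes, 7.24% higher and 8.95% lower. With sex as a covariate 0 Hox genes were past both thresholds and Hoxa2, Hoxa3, Hoxa5 and Hoxa7 kept an adjusted p under 0.05, and in females alone (2 against 3) Hoxa2 was the single one. edgeR's quasi-likelihood test on the recovered reads left Hoxa2 alone past both thresholds, with 7 Hox genes at an adjusted p under 0.05. DESeq2's Wald test on the same reads kept Hoxa2, Hoxd10 and Hoxd8 past both, with 9 at an adjusted p under 0.05. Without ApcMin/+; p16cis/cis replicate 4 there were 0 past both thresholds and 4 at an adjusted p under 0.05. Without ApcMin/+ replicates 2, 3 or 5 or ApcMin/+; p16cis/cis replicate 2 there was 1 past both, Hoxa2, and 4, 6, 5 and 6 at an adjusted p under 0.05.

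**Figure D2:**
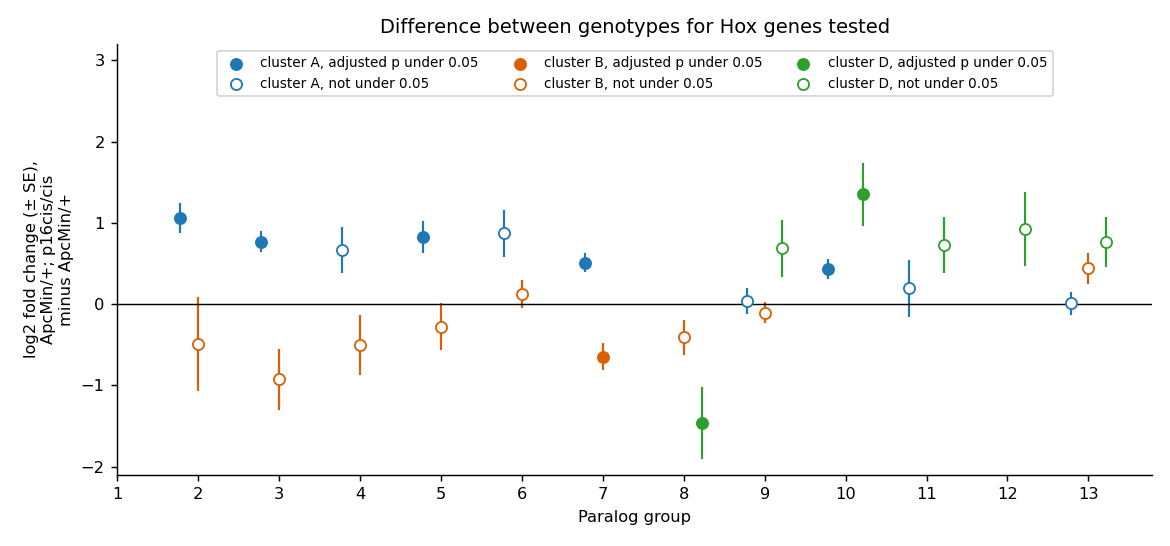
Log2 fold change of ApcMin/+; p16cis/cis minus ApcMin/+ mice (± SE, log2(normalised count + 1) scale, limma) for Hox genes tested, against paralog group. Filled points had an adjusted p under 0.05. The genes of cluster A drawn here lie above 0, although Hoxa9 (0.04), Hoxa11 (0.19) and Hoxa13 (0.01) lie within their SE of it and changed sign in some alternatives (Hoxa13 with edgeR's TMM scaling), while 7 of 9 genes of cluster B and Hoxd8 lie below.

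In cluster A, Hoxa2, Hoxa3, Hoxa5, Hoxa7 and Hoxa10 rose in mice with p16cis/cis, and 0 of 11 genes fell. Hoxa2 patterns the hindbrain and the pharyngeal arch behind the jaw during development. Its normalised count was 129, 112, 115, 92.8 and 120.3 in the 5 ApcMin/+ mice, against 179, 255, 212 and 326 in the ApcMin/+; p16cis/cis group. All mice with p16cis/cis stood above all those without. This gave a log2 fold change of 1.06 ± 0.189 (SE), a 2.08-fold difference (limma, adjusted p = 0.00571), and the exact permutation test over all splits of the mice into 5 and 4 gave a two-sided p of 0.0159, the smallest it can give. Hoxa2 kept an adjusted p under 0.05 in 19 of 19 alternatives. Another gene shares 15.0% of its exon bases on the same strand and was at 0 in all mice.

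Hoxa3, a factor of the pharyngeal pouches that form thymus and parathyroid, was at 368, 343, 341, 393 and 419 in ApcMin/+ mice, against 663, 507, 751 and 638 in the ApcMin/+; p16cis/cis group. The groups were again fully separate, with a log2 fold change of 0.77 ± 0.131 (limma, adjusted p = 0.00486). Exons of other genes on the opposite strand cover 25.4% of the exon bases of Hoxa3, and since the strand setting of the counting is not given in the sources used here, sense and antisense reads cannot be told apart.

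Hoxa5, which acts in lung and gut development, was at 383, 334, 260.5, 248 and 267 against 458, 475, 429.8 and 799. Here too the groups did not overlap, and ApcMin/+; p16cis/cis replicate 4 stood far above its group. The log2 fold change was 0.83 ± 0.197 (limma, adjusted p = 0.0167) and was 0.62 without that mouse (adjusted p = 0.0426). Hoxa7, a middle member best known from blood cell precursors and leukaemia, was at 1049, 860.5, 1041, 858 and 810.4 against 1331, 1152, 1494 and 1277. Its groups were separate at a smaller ratio, with a log2 fold change of 0.51 ± 0.116 (limma, adjusted p = 0.0141), and an antisense gene, Hoxaas3, covers 20.4% of its exon bases.

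Hoxa10, a factor of the uterus and hindlimb, was at 1131, 864, 1056, 924 and 817 in ApcMin/+ mice, against 1273, 1117, 1394 and 1375 in the ApcMin/+; p16cis/cis group. Only ApcMin/+ replicate 1 exceeded the lowest mouse of the other genotype. This gave a log2 fold change of 0.43 ± 0.120 (limma, adjusted p = 0.0296), and 12 of 19 alternatives kept an adjusted p under 0.05, those without ApcMin/+ replicates 2 or 5 or ApcMin/+; p16cis/cis replicates 1, 3 or 4 not among them. Hoxa6 was at 21.5 to 39.7 against 36.1 to 74.5 and did not pass (log2 fold change 0.87 ± 0.287, limma, adjusted p = 0.0563), although 7 of 19 alternatives had an adjusted p under 0.05. Hoxa4 had a log2 fold change of 0.66 ± 0.279 (limma, adjusted p = 0.120, and 0.0202 without ApcMin/+ replicate 4). For Hoxa4 this was the 1 of 19 alternatives under 0.05, and with another mouse left out the adjusted p rose as far as 0.236 (limma).

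The other posterior genes of cluster A did not pass the test. Hoxa9, a factor of blood stem cells, was at 649.5 to 1271 against 896 to 1026 and had a log2 fold change of 0.04 ± 0.161 (limma, adjusted p = 0.898). Hoxa11, a factor of uterus, kidney and forearm, had 0.19 ± 0.352 (adjusted p = 0.739), and the exons of its antisense gene cover 34.98% of its exon bases. Hoxa13 was at 1312, 923, 1173, 1241 and 862 in ApcMin/+ mice, against 1187, 1056, 1213 and 949 in the ApcMin/+; p16cis/cis group. Its means of 1102 ± 199 (SD, n = 5) and 1101 ± 122 (SD, n = 4) lay within the spread of either group, with a log2 fold change of 0.01 ± 0.142 (limma, adjusted p = 0.966). Among the 3 anterior genes of cluster A (groups 1 to 3) the median log2 fold change was 0.77, among the 4 middle genes 0.75 and among the 4 posterior genes 0.12, beside -0.00414 over all genes tested.

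**Figure D3:**
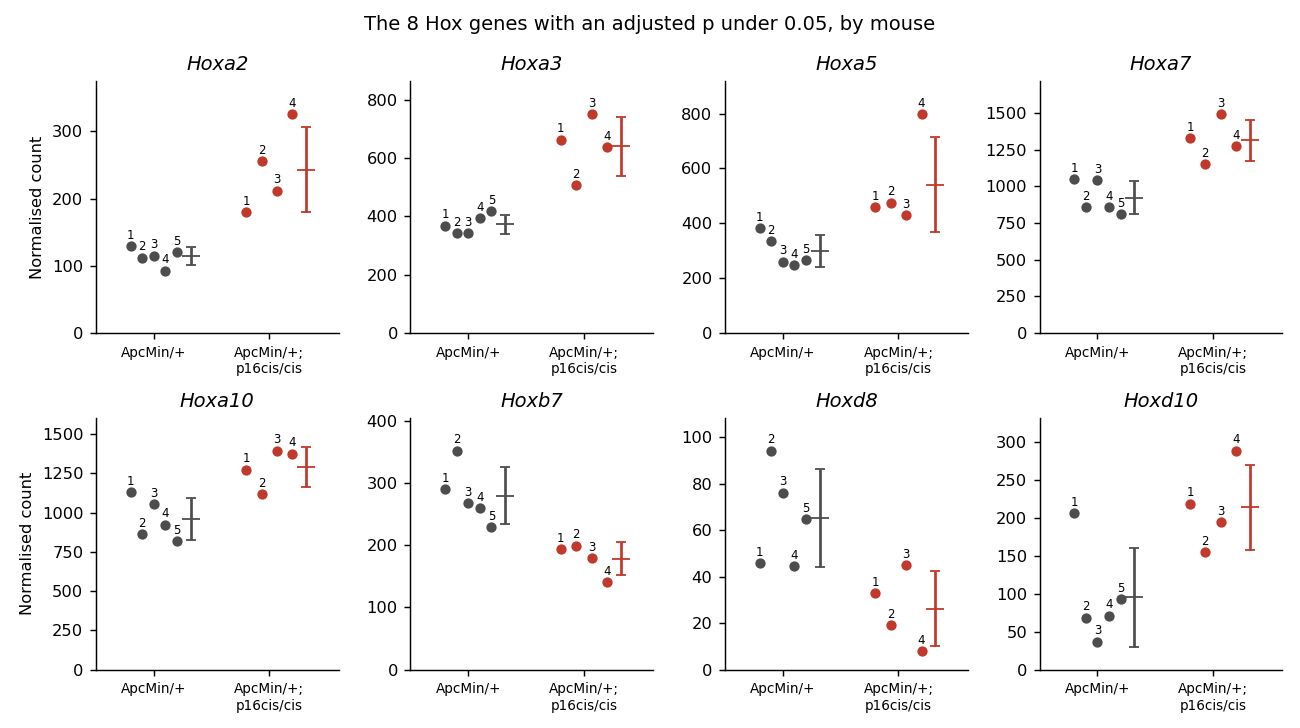
Normalised count (linear axis from 0) of the 8 Hox genes with an adjusted p under 0.05, with 1 point per mouse, the replicate number above it, and the mean ± SD beside each group (grey, ApcMin/+, n = 5, and red, ApcMin/+; p16cis/cis, n = 4). Hoxa2, Hoxa3, Hoxa5, Hoxa7 and Hoxb7 show no overlap, and in Hoxd10 ApcMin/+ replicate 1 (206) lies within the range of the other genotype.

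Cluster B carried most of the Hox reads, and Hoxb7, which fell, was the single one of its 9 tested genes to pass. Hoxb7, a middle member, was at 290.1, 352, 267, 259 and 229 in ApcMin/+ mice, against 193, 199, 179 and 141 in the ApcMin/+; p16cis/cis group. All 4 mice with p16cis/cis stood below all others. The log2 fold change was -0.65 ± 0.161, a 1.56-fold fall (limma, adjusted p = 0.0206, exact permutation two-sided p = 0.0159), and 15 of 19 alternatives kept an adjusted p under 0.05, with losses among others without ApcMin/+ replicate 2 or ApcMin/+; p16cis/cis replicate 4 (highest adjusted p of these 0.0633). Hoxb3, a hindbrain and pharyngeal factor, was at 78.1, 75.1, 72.2, 80.1 and 73.8 against 66.9, 57.4, 43.6 and 14.1. These groups did not overlap either, but the 4 mice with p16cis/cis were widely spread, and Hoxb3 did not pass (log2 fold change -0.93 ± 0.374, limma, adjusted p = 0.106). Without ApcMin/+; p16cis/cis replicate 4 its log2 fold change was -0.45, and exons of an antisense gene, which had at most 4 reads in a mouse, cover 52.9% of its exon bases.

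Hoxb2 (-0.49 ± 0.578, adjusted p = 0.591), Hoxb4 (-0.51 ± 0.367, 0.368), Hoxb5 (-0.28 ± 0.284, 0.536) and Hoxb6 (0.12 ± 0.173, 0.655) overlapped between genotypes (log2 fold change ± SE and limma adjusted p). Hoxb9 was at 2039 to 3025 against 1886 to 2362, with a log2 fold change of -0.10 ± 0.126 (limma, adjusted p = 0.600). Hoxb13 was at 6824, 4609, 4858, 8869 and 4578 in ApcMin/+ mice, against 8269.9, 6736, 7746 and 8466 in the ApcMin/+; p16cis/cis group. The highest mouse of all was ApcMin/+ replicate 4, and the other 4 ApcMin/+ mice overlapped with the p16cis/cis group through replicate 1 alone. Its log2 fold change was 0.44 ± 0.191 (limma, adjusted p = 0.130), and 0.60 with an adjusted p of 0.0110 once ApcMin/+ replicate 4 was left out. Of 19 alternatives, this was the 1 with an adjusted p under 0.05. With another mouse left out the adjusted p rose as far as 0.264 and the log2 fold change was as low as 0.358 (limma).

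Hoxb8, a factor of the spinal cord and of blood and microglial precursors, was at 522 to 784 in ApcMin/+ mice, against 296 to 674 in the ApcMin/+; p16cis/cis group. This gave a log2 fold change of -0.41 ± 0.213 (limma, adjusted p = 0.202). Hoxb8 is the textbook target of miR-196, a microRNA family whose genes lie inside the Hox clusters and whose pairing with the Hoxb8 transcript is close enough for cleavage. The sequences are shown because microRNA and target lie in the same clusters. Bases 2 to 8 of each microRNA (the seed) and the bases opposite them in the Hoxb8 site are in capitals, microRNAs are from RefSeq (GRCm38.p6) and the site is from the 3′ end of the Hoxb8 transcript (GENCODE M21).
miR-196a-5p, from Mir196a-1 at chr11:96265187-96265208 (plus strand) and from Mir196a-2 at chr15:102973365-102973386 (plus strand): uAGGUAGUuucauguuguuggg
miR-196b-5p, from Mir196b at chr6:52230129-52230150 (minus strand): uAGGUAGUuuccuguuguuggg
Hoxb8 site, after the stop codon, at chr11:96284888-96284909 (plus strand): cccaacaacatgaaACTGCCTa
The microRNAs share the seed AGGUAGU and differ by A12C, counted from 1 at the 5′ end of miR-196a-5p. The Hoxb8 site matched the full complement of miR-196a-5p at 21 of 22 bases and differed from it by A18G, counted from the 5′ end of the site, which leaves a G:U pair opposite the seed. A match to bases 2 to 8 of the seed was present after the stop codon in 9 of 39 Hox genes and in 6.09% of 20979 genes with an annotated coding transcript (among them Hoxa4, Hoxa5, Hoxa7, Hoxa9, Hoxb1, Hoxb6, Hoxb7 and Hoxc8, with 4 matches in Hoxa7). Hoxa5 and Hoxa7 rose and Hoxb7 fell among these. Mature microRNAs were not analysed here. The gene of the Mir196a-1 hairpin, whose reads may come from a longer precursor, was at 33.2 to 53.2 against 13.5 to 46.3 (log2 fold change -0.35 ± 0.346, limma, adjusted p = 0.514). Mir196a-2, Mir196b and Mir10b were at 0 in all mice. The Mir196b hairpin lies wholly within exons of Hoxa9 on the same strand, so reads from it may have been counted for Hoxa9.

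In cluster D, Hoxd10 rose and Hoxd8 fell, and the start of Hoxd8 lies 9.51 kb beyond the end of Hoxd10, with Hoxd9 between them. Hoxd8, the most anterior member of the cluster to pass the filter, was at 45.8, 94.1, 76.1, 44.5 and 64.7 in ApcMin/+ mice, against 32.8, 19.1, 45.1 and 7.83 in the ApcMin/+; p16cis/cis group. The groups overlapped through ApcMin/+; p16cis/cis replicate 3 alone. The log2 fold change was -1.47 ± 0.441, a 2.76-fold fall (limma, adjusted p = 0.0405, exact permutation two-sided p = 0.0317). Counts were low, with at most 99 reads in a mouse, and 7 of 18 alternatives kept an adjusted p under 0.05 (adjusted p 0.0142 to 0.192). Without ApcMin/+; p16cis/cis replicate 4 the log2 fold change was -1.01, and the call was also lost without ApcMin/+ replicates 1, 2, 3 or 5 or ApcMin/+; p16cis/cis replicate 2.

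Hoxd10, which acts in the hindlimb and in lumbar motor neurons, was at 206, 68.5, 37.1, 71.2 and 93.1 against 218, 155, 194 and 288. Its groups overlapped through ApcMin/+ replicate 1. This gave a log2 fold change of 1.35 ± 0.389, a 2.55-fold rise (limma, adjusted p = 0.0341, exact permutation two-sided p = 0.0476). In the alternatives the log2 fold change ranged from 0.56 to 1.69, the adjusted p from 0.00795 to 0.376, and 8 of 19 kept an adjusted p under 0.05. Of the alternatives that left out 1 mouse, those without ApcMin/+ replicates 1 or 4 did so, and the other 7 did not (highest adjusted p 0.107).

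Hoxd13 was at 2377, 915, 669, 1099.5 and 1162 in ApcMin/+ mice, against 2640.5, 1379.8, 1746 and 2151 in the ApcMin/+; p16cis/cis group. ApcMin/+ replicate 1 stood far above its group, and without it every ApcMin/+ mouse lay below every mouse of the other genotype. The log2 fold change was 0.76 ± 0.302 (limma, adjusted p = 0.1004), and 1.03 with an adjusted p of 0.0162 without that mouse, when Hoxd11 (0.99, 0.0441) and Hoxd12 (1.33, 0.0262) passed as well. An adjusted p under 0.05 was reached in 2 of 19 alternatives for Hoxd13 and in 1 of 19 each for Hoxd11 and Hoxd12. With another mouse left out the adjusted p rose as far as 0.223 for Hoxd13, 0.314 for Hoxd11 and 0.359 for Hoxd12 (limma). Hoxd9 (0.69 ± 0.353, adjusted p = 0.197), Hoxd11 (0.73 ± 0.340, 0.158) and Hoxd12 (0.93 ± 0.452, 0.175) had positive log2 fold changes and did not pass (limma). Hoxd11 and Hoxd12 are forearm and digit factors, and each was high in ApcMin/+ replicate 1 as well, at 143 and 242.

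In females alone (2 against 3) the log2 fold changes of Hoxd11, Hoxd12 and Hoxd13 were -0.01, 0.08 and 0.06, and that of Hoxd10 was 0.56. ApcMin/+ replicate 1 was 1 of the 2 ApcMin/+ females. The difference between the sexes in the effect of genotype was tested as an interaction term and passed for 0 of 26 Hox genes and 0 of 14410 genes (limma, adjusted p under 0.05). At an unadjusted p under 0.05, 3 of 26 had such a term (Hoxd11, Hoxd12 and Hoxd13, lowest adjusted p 0.722). With 1 male in the ApcMin/+; p16cis/cis group, sex and genotype were only partly separable.

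**Figure D4:**
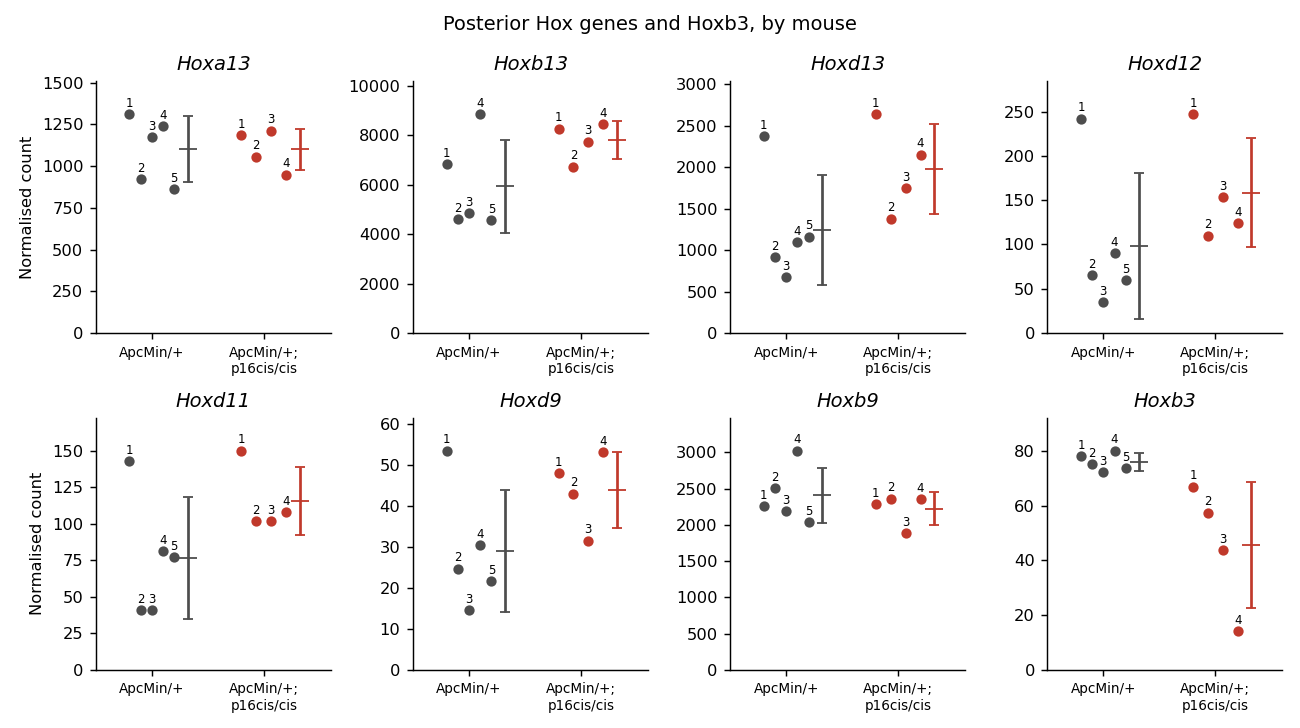
Normalised count (linear axis from 0) of the 3 detected group 13 paralogs, of Hoxd9, Hoxd11, Hoxd12 and Hoxb9, and of Hoxb3, with 1 point per mouse, the replicate number above it, and the mean ± SD beside each group (grey, ApcMin/+, n = 5, and red, ApcMin/+; p16cis/cis, n = 4). ApcMin/+ replicate 1 stands apart from its group in Hoxd13 (2377), Hoxd12 (242) and Hoxd11 (143), and ApcMin/+ replicate 4 is the highest mouse in Hoxb13 (8869).

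The sequences upstream of the 3 genes past both thresholds are shown, because the allele under study acts through DNA methylation at a promoter and CG dinucleotides are the sites of that mark. The paper describes the element as spreading methylation in cis at the p16 promoter. In embryonic fibroblasts it reported no effect on the neighbouring promoters of that locus. Methylation at the Hox genes was not analysed here. Each run holds the 250 bases before the transcription start in RefSeq (GRCm38.p6), 5′ to 3′ on the strand of the gene, with CG dinucleotides in capitals.
Hoxa2, chr6:52164832-52165081, minus strand: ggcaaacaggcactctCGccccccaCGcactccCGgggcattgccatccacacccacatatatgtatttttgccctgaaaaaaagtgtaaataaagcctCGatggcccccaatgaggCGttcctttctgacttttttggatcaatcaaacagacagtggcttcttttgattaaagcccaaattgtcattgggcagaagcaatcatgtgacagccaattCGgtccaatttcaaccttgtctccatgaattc
Hoxd10, chr2:74691641-74691890, plus strand: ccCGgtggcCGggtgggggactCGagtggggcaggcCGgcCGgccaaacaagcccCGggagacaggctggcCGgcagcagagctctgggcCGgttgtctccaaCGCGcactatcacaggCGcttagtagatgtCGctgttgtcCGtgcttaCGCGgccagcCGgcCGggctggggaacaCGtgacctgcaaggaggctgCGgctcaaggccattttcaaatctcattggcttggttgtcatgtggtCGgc
Hoxd8, chr2:74704365-74704614, plus strand: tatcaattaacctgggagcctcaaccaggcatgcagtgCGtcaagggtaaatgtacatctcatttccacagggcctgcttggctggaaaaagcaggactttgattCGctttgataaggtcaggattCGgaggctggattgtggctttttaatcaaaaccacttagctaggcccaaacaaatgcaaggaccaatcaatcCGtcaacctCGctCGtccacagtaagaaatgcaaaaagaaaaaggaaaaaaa
Hoxd10 had 20 CG dinucleotides and 65.6% G and C bases, Hoxa2 6 and 46.4%, and Hoxd8 6 and 44.4%. RefSeq sequences were matched for 22 of 39 members (24 promoters), with a median of 12.5 CG dinucleotides and a range of 2 to 35, against a median of 6 over 32851 promoters. Hoxa13, which did not pass the test between genotypes, had 35. A motif TGATNNAT, a form bound by Hox and Pbx proteins together, was searched on both strands. It was found in 4 of 24 Hox promoters and 7.68% of all, and in the Hoxa2 promoter it began 111 bases before the start. A motif TTTATNG, a core bound by Cdx proteins, was found in 2 of 24 and 9.81% of all, with 3 matches in the Hoxb8 promoter and none in the promoters shown. Neither motif contains the other.

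The members of each cluster were also summarised by mouse. The mean log2 deviation of the 11 genes of cluster A from their 9-mouse means lay at -0.28 to -0.16 in ApcMin/+ mice, against 0.19 to 0.34 in the ApcMin/+; p16cis/cis group, so that all mice of a genotype lay together. For the 9 genes of cluster B it lay at -0.15 to 0.43 against -0.76 to 0.21, with ApcMin/+; p16cis/cis replicate 4 lowest, and the genotypes overlapped. For the 6 genes of cluster D it lay at -0.93 to 0.71 against -0.01 to 0.67, with ApcMin/+ replicate 1 high. The median log2 fold change was 0.51 in cluster A (11 higher, 0 lower), -0.41 in cluster B (2 higher, 7 lower) and 0.75 in cluster D (5 higher, 1 lower). By position it was 0.38 in groups 1 to 3, -0.08 in groups 4 to 8 and 0.44 in groups 9 to 13. In females alone the median of cluster D was 0.07 and that of groups 9 to 13 was 0.08. These medians are descriptions, since neighbouring genes are not replicates of a genotype.

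**Figure D5:**
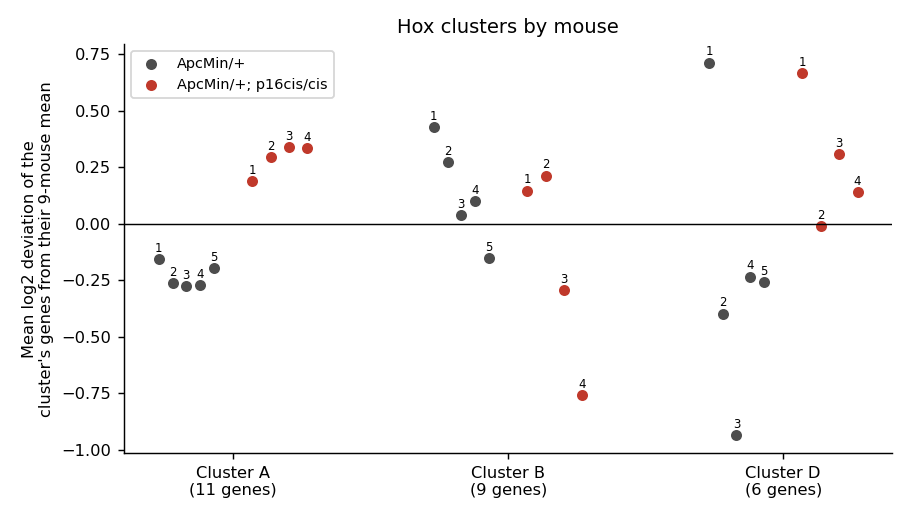
Mean over the tested genes of a cluster of each gene's log2(normalised count + 1) minus its 9-mouse mean, with 1 point per mouse and the replicate number above it (grey, ApcMin/+, n = 5, and red, ApcMin/+; p16cis/cis, n = 4). The genotypes are apart in cluster A (-0.28 to -0.16 against 0.19 to 0.34) and overlap in clusters B and D.

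The paralogs of clusters A and B were compared within each mouse as the log2 ratio of their normalised counts, a ratio that does not depend on the size factor of the library beyond the pseudocount. Of 8 pairs of A and B paralogs, 6 had log2 fold changes of opposite sign, and for 4 pairs (groups 3, 5, 6 and 7) the A to B ratio was higher in all mice with p16cis/cis than in any without. Among single genes the genotypes did not overlap for 16.2% of all tested, and the pairs of groups 3, 5 and 7 contain Hox genes already given as separate, so these ratios are no independent measure. The log2 ratio of Hoxa3 to Hoxb3 was 2.18 to 2.49 in ApcMin/+ mice, against 3.12 to 5.40 in the ApcMin/+; p16cis/cis group. That of Hoxa7 to Hoxb7 was 1.29 to 1.96 against 2.52 to 3.17. The ratios of groups 2, 4, 9 and 13 overlapped between genotypes, as did those of the 4 pairs of A with D and the 3 pairs of B with D.

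Other genes of the clusters, within 10000 bases of the Hox genes, were mostly non-coding. Of 52 such genes, 31 had a read, 18 passed the filter and 3 had an adjusted p under 0.05, a share close to the 16.9% of all genes. Hoxa11os, the antisense transcript of Hoxa11, was among the highest of them and stood at 1009.7 to 1407 in ApcMin/+ mice, against 1674 to 3039 in the ApcMin/+; p16cis/cis group. The groups were separate, with a log2 fold change of 0.97 ± 0.172 (limma, adjusted p = 0.00571), while Hoxa11 itself stood at 21.2 to 67.0 against 37.9 to 66.1. Hottip, a long non-coding RNA beyond Hoxa13 known to act on posterior A genes, was at 333 to 406 against 402 to 533 (log2 fold change 0.38 ± 0.120, limma, adjusted p = 0.0499). The third was RP23-85A17.3, a processed pseudogene between Hoxb9 and Hoxb13 at 23.8 to 362 against 414 to 762 (log2 fold change 2.69 ± 0.562, adjusted p = 0.0101), whose reads may belong to its parent gene. Among those not past the test were Hoxaas3 (-0.02 ± 0.148, adjusted p = 0.948), Hotairm1 (0.61 ± 0.324, 0.208), Hoxb5os (0.14 ± 0.395, 0.838) and Evx2, a homeobox gene beside Hoxd13 (0.33 ± 0.397, 0.602). Hotair, the long non-coding RNA of cluster C, was at 0 in all mice.

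Genes that work with or upstream of Hox genes were taken from fixed lists. Among 6 tested cofactors of the TALE homeodomain class, which bind DNA beside Hox proteins, Meis3 rose from 136 ± 61.3 (SD, n = 5) to 302 ± 110.5 (SD, n = 4), a log2 fold change of 1.17 ± 0.317 (limma, adjusted p = 0.0272). The ParaHox factors Cdx1 and Cdx2, which activate Hox genes in the hindgut, did not pass the test (log2 fold changes 0.24 ± 0.132 and -0.25 ± 0.154, limma, adjusted p = 0.221 and 0.285).

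Of 15 Polycomb genes, the repressors that hold Hox genes silent, 4 had an adjusted p under 0.05, 2 in each direction, against 16.9% of all genes. Ring1 (log2 fold change 0.53) and Phc2 (0.36) rose, and Suz12 (-0.43) and Bmi1 (-0.58) fell. Of 8 Trithorax and H3K27 demethylase genes, which oppose them, 5 had a log2 fold change above 0 and 3 below. At an adjusted p under 0.05 there were 3 higher and 0 lower, against 8.14% and 8.75% of all genes. The 3 were Kdm6b (0.70 ± 0.107, limma, adjusted p = 0.00317), a demethylase of the Polycomb mark, Kmt2d (0.61) and Men1 (0.43). Among 4 tested retinoic acid receptor genes, whose ligand activates anterior Hox genes, Rara rose (0.78 ± 0.147, adjusted p = 0.00725). Medians over the tested genes were 0.20 for the cofactors, 0.00 for Polycomb, 0.26 for Trithorax, 0.14 for the receptors, -0.20 for the ParaHox genes and -0.07 for 9 transcription factors of gut segments.

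Other markers of position along the gut moved in both directions. Of 7 tested colon markers, 2 had a log2 fold change above 0 and 5 below, with a median of -0.71. Past an adjusted p under 0.05, Insl5, a hormone of the distal colon, rose (log2 fold change 1.24 ± 0.313, limma, adjusted p = 0.0211) and Slc26a3, the chloride and bicarbonate exchanger of colonocytes, fell (-1.23 ± 0.244, 0.00848). Among 7 tested genes of small intestinal epithelium, 6 of them with a log2 fold change below 0 and a median of -0.95, 3 fell and none rose, namely Sis, a brush border disaccharidase (-3.04 ± 0.524, 0.00509), Apob, the scaffold of chylomicrons (-1.49 ± 0.192, 0.00183), and Slc10a2, the ileal bile acid transporter (-1.21 ± 0.270, 0.0131). Of all genes tested, 8.14% rose and 8.75% fell past the same threshold. Lct, the lactase of the small intestine, was at 0 to 6.27. The stretch of colon from which each sample was taken is not given in the sources used here, so a difference in position along the colon and a difference at the same position cannot be told apart.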

How the data were processed

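RNA-seq libraries of 5 ApcMin/+ and 4 ApcMin/+; p16cis/cis mice were analysed, with groups taken from the sample labels. The authors sequenced on BGISEQ-500, aligned with BOWTIE2, quantified with RSEM and normalised with DESeq2. The authors deposited signal values per gene, namely gene counts divided by a size factor per library. The genome build, annotation and strand setting are not given in the sources used here. 100% of positive values were whole multiples of 1 read within 0.01 reads, which gave the read counts back and the depths stated above. Of 54146 identifiers, 54079 were found in GENCODE M21 (GRCm38), which supplied positions and exon lengths.

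Genes that reached a normalised count of 10 in 4 or more mice (14410) were tested on log2(normalised count + 1) with limma 3.58.1 (trend, R 4.3.3) and Benjamini-Hochberg adjustment. Fold changes on this scale understate changes of low genes. The limma p-values set the difference between genotypes against the spread between mice, with the variance of each gene drawn towards a trend over all genes. Calls required an adjusted p under 0.05 and a fold over 2. As alternatives, the recovered reads were tested with edgeR 4.0.16 and with DESeq2 1.42.0. The others were TMM scaling, a pseudocount of 0.1, no filter, at least 10 reads in every mouse, sex as a covariate, females alone, a replicate block, each mouse left out and the longest transcript as length.

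Values in every mouse were given for Hox genes with an adjusted p under 0.05, the highest gene of each cluster and group 13. Other genes were named from fixed lists (cofactors, ParaHox, Polycomb, Trithorax, retinoic acid receptors, gut segment factors and cell type markers). Some items are not reported here. Members and lists were chosen with earlier results of these data known. Replicate numbers name different mice, and the deviations of equally numbered mice correlated at -0.175 to 0.142, so the numbers were not taken as pairs. Intervals for a count of 0 cover counting error only.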

Additional observations from a re-analysis of the deposited data

Results flagged for a closer look

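In 7 of 52 groups of mice (26 Hox genes in 2 genotypes) a single mouse stood far from the others of its genotype. The rule set the gap to the nearest mouse against the range of the group. It used normalised counts and not the log2 scale of the tests. Chance gives about 1 in 20 groups, or 2.6, only for normally distributed normalised counts, which was not tested. On the log2 scale high mice stand out less and low mice more, so 7 against 2.6 does not measure an excess. Among ApcMin/+ mice, replicate 1 was high in Hoxd13 (2377, others 669 to 1162) and in Hoxd12 (242, others 35.1 to 90.3), and replicate 4 was high in Hoxa4 (53.4, others 23.4 to 30.4). Among ApcMin/+; p16cis/cis mice, replicate 4 was high in Hoxa5 (799, others 429.8 to 475) and replicate 1 in Hoxd11 (150.3, others 102 to 108). Replicate 3 was low in Hoxa6 (36.1, others 68.6 to 74.5) and in Hoxb9 (1886, others 2289 to 2362). Neighbouring genes of a cluster share a mouse and are not independent. The cause was not tested.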

How the results depend on the processing

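Of 490 values of single Hox genes under 19 alternatives, 426 kept direction and side of the threshold, 36 lost an adjusted p under 0.05, 13 gained one and 15 changed sign, none of them in a gene with an adjusted p under 0.05. Genes past both thresholds (3) numbered 1 with edgeR under TMM or RLE scaling, 0 with sex as a covariate, 1 in females alone and 0 to 4 with a mouse left out. Those at an adjusted p under 0.05 (8) numbered 4, 1 and 4 to 11 under the last 3. The replicate block, for numbers that do not pair the mice, gave 3 and 10. DESeq2 on the recovered reads gave 3 and 9. The median of cluster A (0.51) was 0.59 with at least 10 reads in every mouse, 0.61 in females alone and 0.445 to 0.614 with a mouse left out. That of groups 1 to 3 was 0.91 and 0.053 under the first 2, and in females alone cluster D gave 0.0686 and groups 9 to 13 gave 0.0791. The regulator lists had 11 genes at an adjusted p under 0.05 and 7 with sex as a covariate. Signs changed in Hoxa13 (edgeR with TMM -0.00318, replicate block -0.0721, a mouse left out -0.0721 to 0.0807), Hoxa9 (sex as a covariate -0.0365, females alone -0.137, a mouse left out -0.0939 to 0.148), Hoxa11 (a mouse left out -0.0733 to 0.345), Hoxb2 (a mouse left out -0.806 to 0.0235) and Hoxb6 (females alone -0.00327, a mouse left out -0.0422 to 0.256), and in females alone in Hoxb9 (0.0304) and Hoxd11 (-0.0131). With no filter the median of all genes was -0.12. Fewer mice enter the fits of females and of a mouse left out. Beyond this the cause was not tested. Depth limits Hoxb2 and the members that were not tested.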
